A study of Arabidopsis thaliana with 6 samples.

Results

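The genes described here are 7 members of the CHX family of cation/proton exchangers, measured in unopened flower buds of Arabidopsis thaliana on days 3, 4 and 5 of drought. They were found by a naming rule for membrane transporters. It took every probe set annotated to 1 gene whose symbol was ABC with a subfamily letter and a number, CHX with a number, or an aquaporin name of the PIP, TIP, NIP or SIP type. The rule found 7 genes among 13356 with such a probe set, each with a single probe set, and all 7 were CHX genes. They are CHX15 (AT2G13620), CHX16 (AT1G64170), CHX19 (AT3G17630), CHX20 (AT3G53720), CHX21 (AT2G31910), chx28 (AT3G52080), which is written in lower case in the annotation, and CHX6B (AT1G08135), whose number carries a letter. The gene table of the TAIR10.1 assembly listed 28 CHX genes, 124 ABC genes and 21 aquaporins under such symbols. The other 21 CHX genes, the ABC transporters and the aquaporins had no named probe set and were not analysed here, so nothing below describes drug-type pumps or water channels.

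All plants carried the anac019-1 allele, the T-DNA insertion line SALK_096295 in the Col-0 background, and all were under drought, so both were shared by every group. ANAC019 encodes a transcription factor of the NAC family. Plants grew for 24 days with full watering until the stem had just bolted, and water was then withheld. About 80 hours later, on day 3, the soil held near 35% of its capacity, and it was kept there. Buds were collected on day 3 from plants aged 28 days, on day 4 from plants aged 29 days and on day 5 from plants aged 30 days, with 2 arrays per day. Neither wild-type plants nor watered controls were analysed here, and plant age and days of drought cannot be told apart. The labels do not say whether the 2 replicates of a day came from separate pots, and the p-values therefore reflect only the spread between arrays, which may be technical.

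CHX proteins are membrane antiporters that exchange potassium or another monovalent cation for protons, and so help to set cation content and pH in the cell and in its compartments. The Arabidopsis family is large, and many of its genes are known to be expressed mainly in pollen. CHX20 is known for its role in guard cells, where it takes part in the osmotic regulation of stomatal opening. CHX16 and CHX19 belong to the branch of CHX17, whose members move potassium across endomembranes. CHX21 acts with its close relative CHX23 in guiding pollen tubes to the ovule.

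Each array gives a log2 reading per probe set, summarised by RMA, which equalises the distribution of readings between arrays. A change is therefore a shift against the rest of the array. Changes of day means were tested with limma on all 6 arrays and 22746 probe sets, with Benjamini-Hochberg adjustment over all of them. A gene is said to have risen or fallen where the adjusted p was under 0.05. Array medians lay between 6.97 and 7.03, and arrays of 1 day correlated across probe sets at 0.994 to 0.996, against 0.964 to 0.973 for day 3 with day 5. Between replicates of a day the 7 CHX genes had residual SDs of 0.0856 to 0.191 log2 units. The poly-A spike-in controls, which are meant to be added to RNA before labelling, averaged 6.38 to 6.64 on the arrays of days 3 and 4 and 6.87 and 7.03 on those of day 5. The 25S ribosomal RNA probe set read 11.45 to 12.23 on days 3 and 4 and 12.82 and 13.11 on day 5. The difference between 3′ and 5′ probe sets of actin, GAPDH and ubiquitin was 2.94 in day 3 replicate 1 and 2.30 to 2.48 in the other arrays. The part of spike-in level and RNA quality in the results was not tested, except that centring on the spike-ins was tried.

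From day 3 to day 5, 3 of the 7 CHX genes rose: CHX19, CHX15 and chx28. None fell, and 4 did not pass. Among all tested probe sets 12.9% rose and 15.9% fell over these days. The log2 reading of CHX19, an endomembrane potassium exchanger, was 7.43 and 7.41 on the day 3 arrays, 7.88 and 7.62 on day 4, and 8.78 and 8.49 on day 5. The 3 days did not overlap, and each day's arrays lay above those of the day before. The share of all tested probe sets with such an order over 3 days was not computed. The mean of CHX19 rose from 7.42 ± 0.02 on day 3 to 8.64 ± 0.20 on day 5 (SD, n = 2 per day), so that the log2 difference was 1.22 ± 0.15 (SE) and the ratio 2.32-fold (limma adjusted p = 0.000988).

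CHX15, for which no role of its own is given here, read 5.35 and 5.07 on day 3, 5.45 and 5.09 on day 4, and 6.33 and 6.24 on day 5. Its arrays of days 3 and 4 overlapped, and both day 5 arrays stood above them. Its change from day 3 to day 5 was 1.08 ± 0.16 in log2 units, 2.11-fold (limma adjusted p = 0.00229), from 5.21 ± 0.20 to 6.28 ± 0.06 (SD, n = 2 per day). On days 3 and 4 replicate 1 of CHX15 read higher than replicate 2 by more than the day means differed.

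The readings of chx28 were 4.95 and 4.75 on day 3, 4.90 and 4.93 on day 4, and 5.50 and 5.57 on day 5. The pattern was the same as for CHX15, with days 3 and 4 overlapping and day 5 above both. The change from day 3 to day 5 was 0.68 ± 0.12, or 1.60-fold (limma adjusted p = 0.00446), from 4.85 ± 0.14 to 5.53 ± 0.05 (SD, n = 2 per day). Its mean over the 6 arrays was higher than that of 31.0% of the tested probe sets, and RMA tends to understate how far a dim transcript moves. The same limit holds for CHX15, CHX6B and CHX16, whose means were above 34.8%, 32.9% and 25.7% of the tested probe sets. With arrays centred on the spike-ins its change was 0.18 and did not pass.

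**Figure D1:**
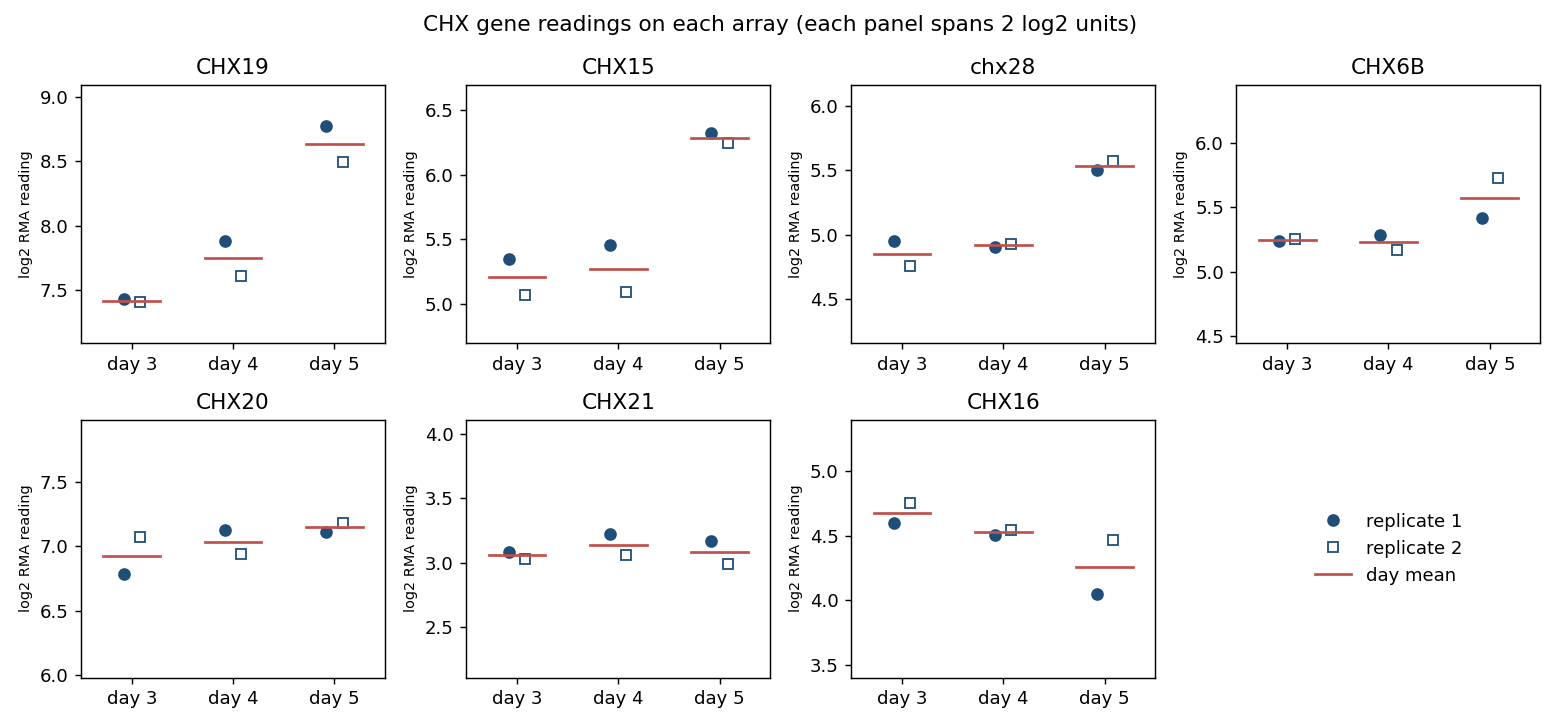
Log2 RMA reading of each CHX gene on each of the 6 arrays by day of drought, with filled circles for replicate 1, open squares for replicate 2 and a bar for the mean of the 2. In the panels of CHX19, CHX15, chx28 and CHX6B both day 5 arrays lie above all arrays of days 3 and 4. The arrays of CHX21 stay between 2.99 and 3.22.

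The other 4 CHX genes did not pass in any comparison of days on the deposited scale with all 6 arrays and no replicate block. CHX6B read 5.24 and 5.26 on day 3, 5.29 and 5.17 on day 4, and 5.42 and 5.73 on day 5. Both day 5 arrays lay above the earlier ones, and the 2 differed from each other by nearly as much as their mean differed from that of day 3. The change from day 3 to day 5 was 0.33 with a 95% interval of 0.01 to 0.64 (limma adjusted p = 0.115). Leaving out day 5 replicate 2 gave 0.17, leaving out replicate 1 gave 0.48, and spike-in centring gave -0.18.

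CHX20, the guard cell exchanger, read 6.78 and 7.07 on day 3, 7.13 and 6.94 on day 4, and 7.11 and 7.18 on day 5. Day 3 replicate 1 was the lowest array, and the other 5 lay close together. The interval of its change from day 3 to day 5 was -0.10 to 0.54 on the log2 scale, around a value of 0.22 (limma adjusted p = 0.29). Leaving out day 3 replicate 1 gave 0.08, leaving out replicate 2 gave 0.36, and centring on the spike-ins gave -0.28. That interval leaves out a change of 1 log2 unit in either direction.

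CHX21, of the pollen tube guidance pair, read 3.08 and 3.03 on day 3, 3.22 and 3.06 on day 4, and 3.17 and 2.99 on day 5. The days overlapped throughout, and only 4.95% of the tested probe sets had a lower mean, so its reading lay near the bottom of the scale. Its change from day 3 to day 5 was 0.02, with an interval of -0.26 to 0.31 (limma adjusted p = 0.919), and a change at such a dim reading would be compressed. With arrays centred on the spike-ins it was -0.48 and passed, while the median of all tested probe sets was -0.55.

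CHX16, the relative of CHX19, was the only CHX gene whose mean was lower on day 5 than on day 3. It read 4.60 and 4.75 on day 3, 4.50 and 4.54 on day 4, and 4.05 and 4.47 on day 5. The arrays of the 3 days did not overlap and were lower on each later day, an order whose share among all tested probe sets was not computed. The day 5 arrays differed by about as much as the means of days 3 and 5. The change from day 3 to day 5 was -0.42, with an interval of -0.78 to -0.05 (limma adjusted p = 0.0857). It passed without day 5 replicate 2, with a change of -0.63 (adjusted p = 0.0313), with the replicate number as a block (adjusted p = 0.0468), and with arrays centred on the spike-ins, at -0.92. Without day 5 replicate 1 the change was -0.20 (adjusted p = 0.386), so its size rested on which day 5 array was kept.

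Between day 3 and day 4 none of the 7 CHX genes passed, while 0.501% of all tested probe sets did. None of the 7 had an unadjusted p under 0.05, but the share of all tested probe sets at that threshold was not computed. CHX19 differed most, by 0.33 ± 0.15 on the log2 scale, with a 95% interval of -0.01 to 0.67 (limma adjusted p = 0.56). The other 6 lay between -0.15 for CHX16 and 0.11 for CHX20. The interval for CHX15 at this step was -0.30 to 0.44, and that for chx28 was -0.21 to 0.34. Arrays of the 2 days did not overlap for CHX19, which was higher on day 4, and for CHX16, which was lower. Among all tested probe sets 17.8% were higher without overlap and 21.2% were lower. The median change of the 7 genes was 0.07, and over all 13513 probe sets with 1 gene it was 0.00.

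Between day 4 and day 5 the same 3 genes rose, 3 of 7, and none fell. Across all tested probe sets 10.4% rose and 11.6% fell at this step. CHX15 rose by 1.01 ± 0.16, or 2.02-fold (limma adjusted p = 0.00478). CHX19 rose by 0.89 ± 0.15, or 1.85-fold (adjusted p = 0.00556), and this call was lost without day 4 replicate 2, at an adjusted p of 0.0581. The rise of chx28 was 0.62 ± 0.12, or 1.53-fold (adjusted p = 0.00993). It was not past the threshold without day 4 replicate 1, day 4 replicate 2 or day 5 replicate 2, with adjusted p values of 0.0716, 0.0737 and 0.0615. Without day 4 replicate 2 the count of CHX genes that passed was therefore 1, with CHX15 alone.

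At this step CHX6B differed by 0.35, with an interval of 0.03 to 0.66 (limma adjusted p = 0.111), and CHX16 by -0.27 (adjusted p = 0.279). CHX20 and CHX21 differed by 0.11 and -0.06. Arrays of days 4 and 5 did not overlap for 5 of the 7 genes, of which 4 were higher on day 5 and CHX16 was lower. Among all tested probe sets 26.9% were higher and 37.0% lower in that way. The median change of the 7 genes was 0.35, against -0.04 over all probe sets with 1 gene.

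From day 3 to day 5 the arrays of the 2 days did not overlap for 6 of the 7, with 5 higher on day 5 and CHX16 lower, against 26.3% and 35.3% of all tested probe sets. The median change of the 7 was 0.33, and over all probe sets with 1 gene it was -0.04. A rise as large as that of CHX19 or larger was seen in 2.90% of all tested probe sets, and as large as that of CHX15 in 3.84%. These comparisons share arrays: day 3 enters the first and the last, day 4 the first and the second, and day 5 the last 2.

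**Figure D2:**
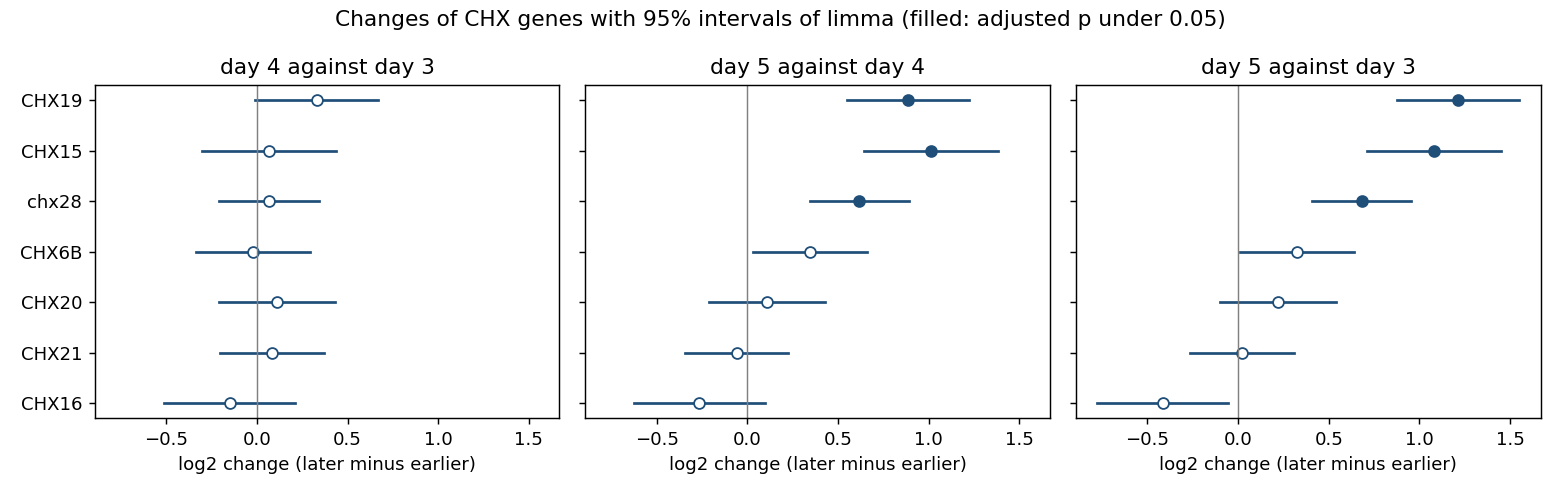
Log2 change of each CHX gene between days, later minus earlier, with 95% intervals from limma as bars and filled points where the adjusted p was under 0.05. From day 4 to day 5 and from day 3 to day 5 the points of CHX19, CHX15 and chx28 are filled, and from day 3 to day 4 no point is.

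Whether a gene moved more in the second daily step than in the first was tested as the difference between the steps. None of the 7 CHX genes passed, while 1.93% of all tested probe sets did. CHX15 came nearest, with a step difference of 0.95 ± 0.28 on the log2 scale (limma adjusted p = 0.14), followed by CHX19 at 0.56 (adjusted p = 0.319) and chx28 at 0.55 (adjusted p = 0.229). At an unadjusted p under 0.05 the count was 2, CHX15 and chx28. The share of all tested probe sets at that threshold was not computed, so the count of 2 cannot be set against it. A moderated F test over the 3 days called CHX15, CHX19 and chx28, with 25.1% of all tested probe sets called.

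The directions depend on the scaling in part. When arrays were centred on the spike-in controls, which assumes that equal amounts were added to each sample, the median change of all tested probe sets from day 3 to day 5 became -0.55, against -0.04. Of the probe sets that passed, 6.87% were then higher on day 5, against 44.7%. From day 4 to day 5 the shares were 7.69% and 47.3%, and from day 3 to day 4 32.7% and 53.5%. CHX19 and CHX15 still rose, by 0.71 (limma adjusted p = 0.00354) and 0.58 (adjusted p = 0.0149). With this scaling chx28 no longer passed (adjusted p = 0.37), CHX16 and CHX21 fell (adjusted p = 0.000865 and 0.0267), and CHX20 and CHX6B did not pass. From day 4 to day 5 this centring gave the same calls, with CHX15 at 0.62 and CHX19 at 0.49. Of all tested probe sets, 70.5% passed under it from day 3 to day 5 and 52.4% from day 4 to day 5. The CHX21 change from day 3 to day 5, -0.48, was smaller in size than the median of all tested probe sets, -0.55.

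**Figure D3:**
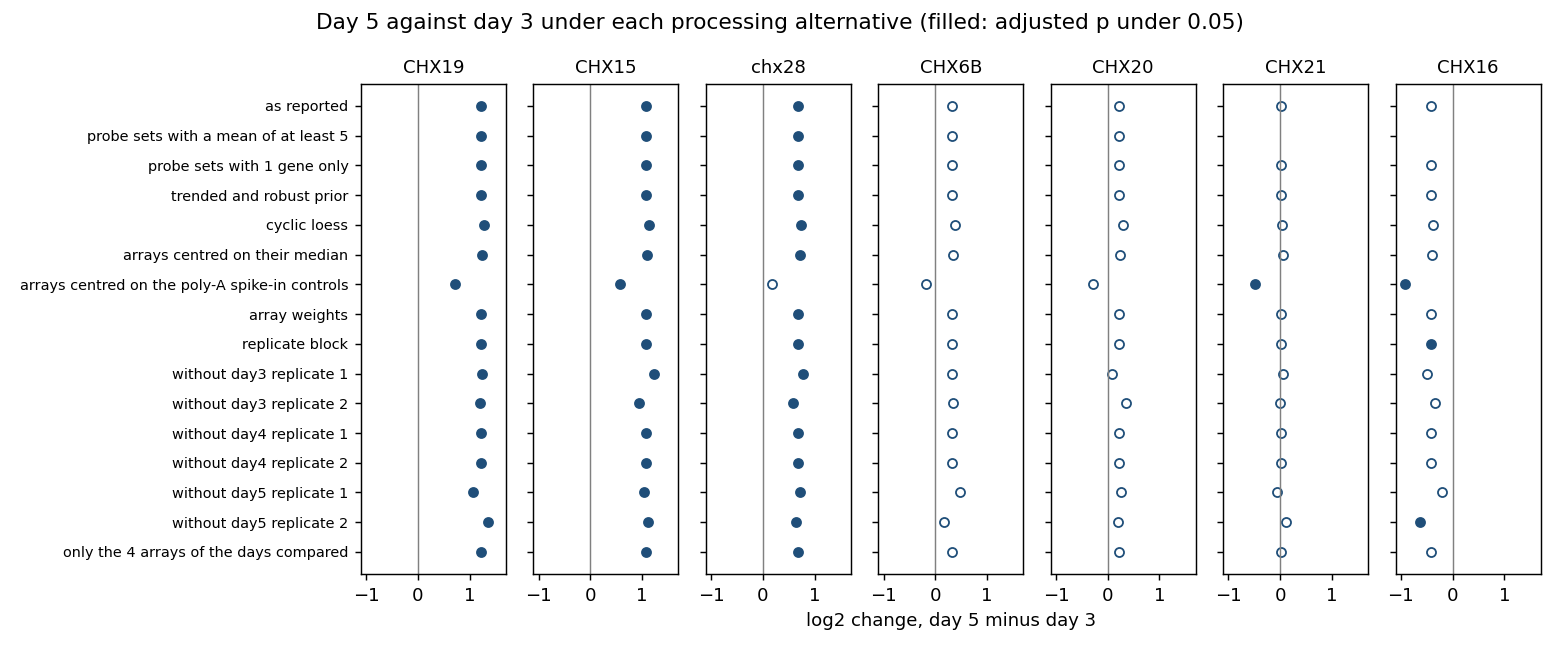
Log2 change of each CHX gene from day 3 to day 5 under each processing alternative, with filled points where the adjusted p was under 0.05; a missing point means that the gene was below a filter on low readings. The points of CHX19 and CHX15 are filled in every line, those of chx28 in every line but the one centred on the spike-in controls.

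Maturing pollen is one of the cell types in a bud, and markers of it were read beside the CHX genes. Of 13 such markers 7 had a named probe set. From day 4 to day 5, 4 of the 7 rose and none fell: the pollen actin gene ACT12 by 0.91, the MADS-box genes AGL66 and AGL104, which act as pollen matures, by 0.97 and 1.06, and ANX1, for a receptor kinase of the pollen tube, by 0.89. From day 3 to day 5, 5 rose and none fell, AGL65 being the fifth. Among all tested probe sets 10.4% rose and 11.6% fell from day 4 to day 5, and 12.9% rose and 15.9% fell from day 3 to day 5. When arrays were centred on the spike-ins, 3 markers rose and 1, ACT11, fell from day 3 to day 5, while 70.5% of all tested probe sets passed. The summed level of the 7 markers, on a log2 scale, lay between 10.03 and 10.36 on the day 3 arrays, 10.15 and 10.16 on day 4, and 10.55 and 10.86 on day 5. RMA readings have no 0, and AGL65, the dimmest of the 7, averaged above 37.4% of the tested probe sets. ACT12, AGL65, AGL66, AGL104 and ANX1 thus stood higher on both day 5 arrays, as CHX19, CHX15, chx28 and CHX6B did. Among all tested probe sets 26.9% were higher without overlap from day 4 to day 5 and 26.3% from day 3 to day 5. In contrast, ACT11 read 9.05 and 9.17 on day 5 against 9.09 and 9.58 on day 3, and ANX2 overlapped between days 4 and 5. The part of the markers in the rise of the CHX genes was not tested. In whole buds, fewer or more cells of a type and less or more RNA per cell cannot be told apart.

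Of 9 tapetum markers, 2 had a named probe set, and 2 more were left out because the gene table did not hold their symbols. SHT, whose product makes spermidine conjugates in the tapetum, changed by -1.83 from day 4 to day 5 (limma adjusted p = 0.00338), and the value for the tapetum regulator AMS, which did not pass, was -0.60 (adjusted p = 0.0704). With arrays centred on the spike-ins both passed as lower at this step and from day 3 to day 5. Under that centring 52.4% and 70.5% of all tested probe sets passed in these comparisons. The summed level of SHT and AMS was 11.00 to 11.11 on day 3, 11.03 and 11.05 on day 4, and 9.25 and 10.03 on day 5. The day 5 replicates differed here, with replicate 2 the lower. Every measured pollen marker read higher in replicate 2 of day 5, ANX2 by the most, at 6.62 and 8.04. CHX19, CHX15 and CHX21 read lower in replicate 2 of day 5 than in replicate 1, and chx28, CHX6B, CHX16 and CHX20 read higher.

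**Figure D4:**
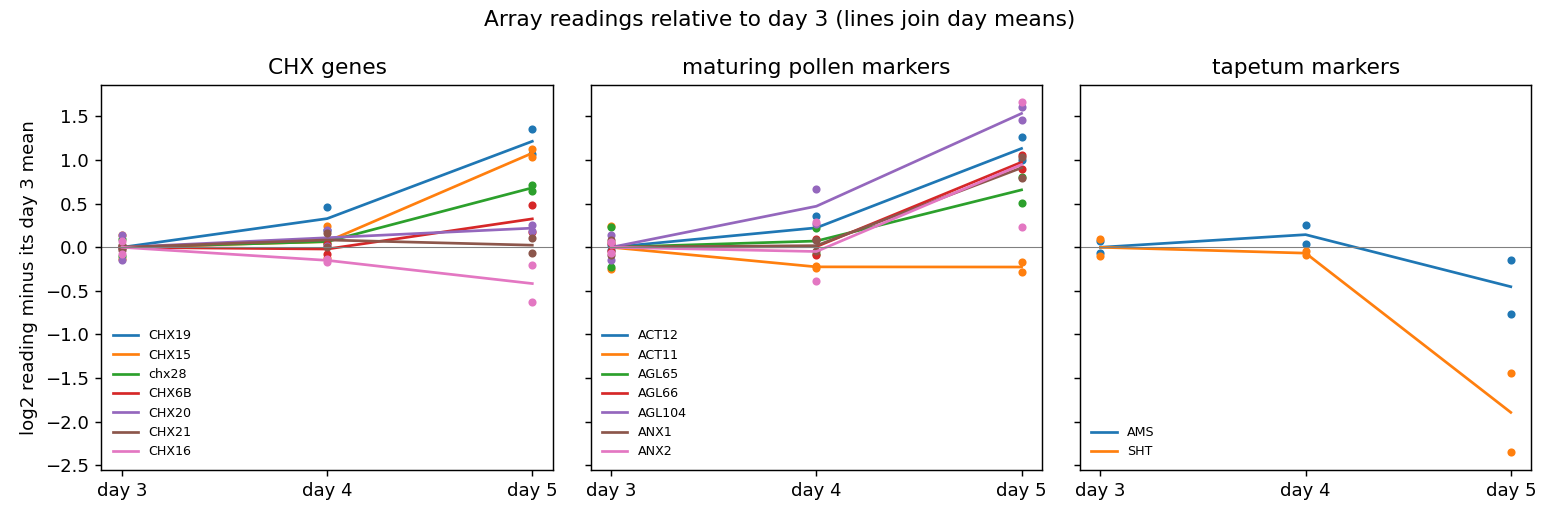
Log2 reading of each gene on each array minus its own day 3 mean, by day, for the 7 CHX genes, 7 markers of maturing pollen and 2 of the tapetum; lines join the day means. CHX19, CHX15, chx28, CHX6B, CHX20 and most pollen markers stand above 0 on day 5, while AMS and SHT stand below it.

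As to the labelled tissue, none of the 10 floral organ identity genes listed had a named probe set, so they could not serve as a check. AMS and SHT of the tapetum read 8.18 to 9.19 and 8.32 to 10.77 over the 6 arrays. The root hair expansin gene EXP7, the single root marker of 5 with a probe set, read 3.49 to 3.85.

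CHX exchangers run on the proton gradient that proton pumps make, and 3 of 20 listed pump genes were measured, all of them for subunit a of the vacuolar-type proton pump. None passed between day 3 and day 4 or between day 4 and day 5. From day 3 to day 5, VHA-A3 of the vacuolar membrane fell, with a log2 change of -0.43 ± 0.11 (limma adjusted p = 0.0262), a call lost with cyclic loess and without any 1 of the 6 arrays. VHA-A2 and VHA-A1 differed by -0.09 each without passing. With arrays centred on the spike-ins all 3 passed as lower from day 3 to day 5, with a median of -0.60 against -0.09. VHA-A2 and VHA-A3 did so from day 4 to day 5, where the median was -0.51 against -0.11. Under that centring the medians of all tested probe sets were -0.55 and -0.44, and 70.5% and 52.4% of them passed. The 30 listed potassium and sodium transporters, 13 auxin carriers and 8 pollen wall genes had no named probe set. Of 20 cuticle genes 1 was measured, the wax ester synthase gene WSD1, which fell from day 4 to day 5 with a log2 change of -0.69 (adjusted p = 0.00725).

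The 7 CHX genes do not neighbour each other. CHX6B lies next to CHX6A, and CHX15 next to ABCG5, neither of which had a named probe set. Of the 14 protein-coding genes on either side of the 7, 3 were measured. AT3G17640, beside CHX19, changed by -0.94 from day 3 to day 5 (limma adjusted p = 0.00673), opposite to CHX19. AT2G13630, beside CHX15, changed by -0.49 (adjusted p = 0.0327), again opposite, and AT1G64180 beside CHX16 differed by 0.30 (adjusted p = 0.197). In the gene table CHX19, CHX21 and chx28 overlap other genes in part, chx28 for example NRPB11, which encodes an RNA polymerase subunit. The positions of the probes within each gene are not given in the sources used here, and how far these 3 probe sets also report an overlapping transcript was not tested.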

How the data were processed

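Biotin-labelled RNA of unopened buds was measured on 6 single-colour Affymetrix arrays. The deposited values are log2 probe set summaries; per the submitters' processing notes the authors used RMA in the R package affy, with no versions given. The sources used here do not say which arrays were normalised together. Of 22810 probe sets, 64 controls were left out of the tests. Symbols came from the platform annotation, updated by gene identifier through a RefSeq table (TAIR10.1): 13513 probe sets had 1 gene, 503 several and 8730 none. Matching to CHX ignored letter case.

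Groups came from the sample titles. Changes were tested with limma 3.58.1 in R 4.3.3 (lmFit, eBayes) as contrasts of 3 day means, with 3 residual and 4.69 prior degrees of freedom, two-sided, with Benjamini-Hochberg adjustment over 22746 probe sets. The script was tested on simulated data. Array number limits the precision.

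The members, lists, tests and alternatives were chosen with earlier results of these data known. Members were matched by symbol alone. Genes to be named in the text were members past the threshold and the member with the highest mean, CHX19; CHX6B, CHX16, CHX20 and CHX21 are named because every member is accounted for. The 128 entries of 9 lists gave 14 measured genes. Sequences are not shown. Alternatives were cyclic loess, array weights, centring on array medians or on 24 spike-in probe sets, a robust prior with trend, a minimum mean of 5, single-gene probe sets alone, a least change of 2-fold, the replicate block, fits of 4 arrays, and fits without 1 array.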

Additional observations from a re-analysis of the deposited data

How the results depend on the processing

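The counts of 0 CHX genes past the threshold between day 3 and day 4 and for the step difference held under every alternative run. The count from day 4 to day 5, 3 of 7, was 1 to 3 when any 1 array was left out, the lowest without day 4 replicate 2, and 1 with a 2-fold requirement, CHX15 alone. Between day 3 and day 5 the count was 3 or 4 when any 1 array was left out. The median change of the 7 genes from day 4 to day 5, 0.35, was 0.62 over the 5 genes that passed a filter on low readings, -0.05 with arrays centred on the spike-in controls, and 0.19 to 0.50 when any 1 array was left out. From day 3 to day 5, at 0.33, it was 0.68, -0.18 and 0.19 to 0.48 in the same order. The filter left out CHX16 and CHX21, which accounts for its higher medians. CHX21, at 0.02 from day 3 to day 5, was called at -0.48 with the spike-in centring, which lowers every day 5 value. CHX15 kept both calls between days under all 15 alternatives, with changes of 0.62 to 1.20 from day 4 to day 5. Leaving out CHX6B, tried after seeing the data, changed no count. Over all tested probe sets, 114 passed from day 3 to day 4, against 15 to 58 when any 1 array was left out, 58 with the 4 arrays alone, 46 with single-gene probe sets and 205 with the spike-in centring. From day 4 to day 5 5020 passed, against 2099 and 1366 without either day 4 array, 2146 without day 5 replicate 2, 2548 with single-gene probe sets and 11929 with the spike-in centring. From day 3 to day 5 6548 passed, against 3894 without day 5 replicate 2, and 3439 and 16041 under the same 2 alternatives. With a 2-fold requirement the 3 counts were 77, 1045 and 1702. For the daily steps 440 passed, with 34 to 408 when 1 array was left out and up to 829 with array weights. For any difference among days 5718 passed, with 2931 and 14406 for single-gene probe sets and spike-in centring, 2615 once day 5 replicate 2 was left out and 3769 once day 4 replicate 2 was.

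With the replicate block 3 CHX genes passed from day 4 to day 5 and 4 from day 3 to day 5. CHX16 was the only changed call. With the block 25.6% and 32.2% of all tested probe sets passed, against 22.1% and 28.8%. Arrays share a replicate number only as a label, so the numbers were not taken as pairs. Replicate differences correlated across probe sets at 0.10 for days 3 and 4, 0.38 for days 4 and 5 and 0.14 for days 3 and 5. All were positive, a hint from the data, not the design.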
